A study of Mus musculus with 10 samples.

Results

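Dividing cells switch on genes that copy DNA and, later, genes that separate the copied chromosomes. A set of 42 such genes was followed through regenerating mouse muscle: 24 mitosis genes, 13 DNA replication genes and 5 genes that control G1 and the step into S phase. The genes were given as a list of symbols and were found by their Ensembl identifiers, 1 identifier for each symbol, among 25700 genes in the count data. All 42 passed the filter on low counts, which kept 14410 genes for testing, and their counts ranged from 62 to 6524 in single mice.

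The question of the study was how loss of miR-501, a microRNA encoded on the X chromosome, alters muscle regeneration. The 2 groups were 5 Pax7Cre control mice and 5 miR-501KO mice, all C57BL/6 males of 12 weeks, and each TA muscle was taken at day 6 after an injection of cardiotoxin (CTX), a snake venom toxin that kills muscle fibres and leaves their stem cells able to rebuild them. The Pax7Cre mice carried the Cre driver, although the labels give their genotype as wild type. The miR-501KO mice are labelled miR-501 -/-, and the series design gives them as Pax7CremiR-501fl/Y, so that both groups shared the Cre allele. Pax7 drives Cre in satellite cells, their myogenic progenitors (MPs) and the fibres that form from them, whereas immune cells, fibroblasts and vessels of the same muscle are outside that lineage. RNA came from whole muscle. Levels of miR-501 were not analysed here, so the genotype labels were not checked against them. Both arms of the deleted microRNA are shown because they identify the molecule that separates the groups. They are given from RefSeq (GRCm38.p6, minus strand, chrX:7241270-7241291 for the 3p arm and chrX:7241307-7241328 for the 5p arm), with the seed, bases 2 to 8, in capitals.
miR-501-3p: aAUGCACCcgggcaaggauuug
miR-501-5p: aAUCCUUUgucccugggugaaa

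Replication genes are transcribed from late G1 into S phase, when E2F factors are released from the Rb family and the Mcm helicase is loaded on origins and fired. Mitosis genes follow in G2 and M, under B-Myb, FoxM1 and the DREAM complex, and their transcripts and proteins are cleared as cells leave mitosis. In injured muscle, satellite cells and their progeny divide for several days before they fuse into new fibres, and macrophages, fibroblasts and endothelial cells divide in the same tissue, so a whole muscle extract mixes the cycles of many cell types.

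Values are CPM, counts scaled to the size of each library after TMM scaling. Library totals ran from 18609222 to 22064583 counts in Pax7Cre mice and from 20046670 to 24753258 in miR-501KO mice. The 42 genes together took 0.162, 0.0894, 0.147, 0.201 and 0.135% of all counts in Pax7Cre mice 1 to 5, and 0.163, 0.144, 0.147, 0.13 and 0.153% in miR-501KO mice 1 to 5. The lowest and the highest share were both in control mice, mouse 2 and mouse 4, and the 5 miR-501KO mice lay between them. At this depth counting error was small: over the 42 genes the median coefficient of variation between mice of a genotype was 17.7%, against 4.40% from counting alone, and the first exceeded the second for 42 of 42 genes.

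Pax7Cre mouse 2 stood apart and is named here before any comparison. Each of the 42 genes was below its own mean over the 10 mice in that mouse, and none was below it in Pax7Cre mouse 4. The lowest of the 10 values fell in Pax7Cre mouse 2 for 23 of 24 mitosis genes, 11 of 13 replication genes and 3 of 5 G1 control genes, compared with 21.8% of all 14410 genes tested. The highest value fell in Pax7Cre mouse 4 for 27 of 42 genes. Pax7Cre mouse 5 was below the mean for 37 of the 42 genes and miR-501KO mouse 4 for 33, while miR-501KO mouse 1 was below it for 2. The libraries of the 2 control mice also differed in make-up: mitochondrial genes took 14.0% of counts in Pax7Cre mouse 2 and 6.59% in Pax7Cre mouse 4, and the TMM factors were 0.884 and 1.13. The part of these differences in the levels of the 42 genes was not tested.

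**Figure D1:**
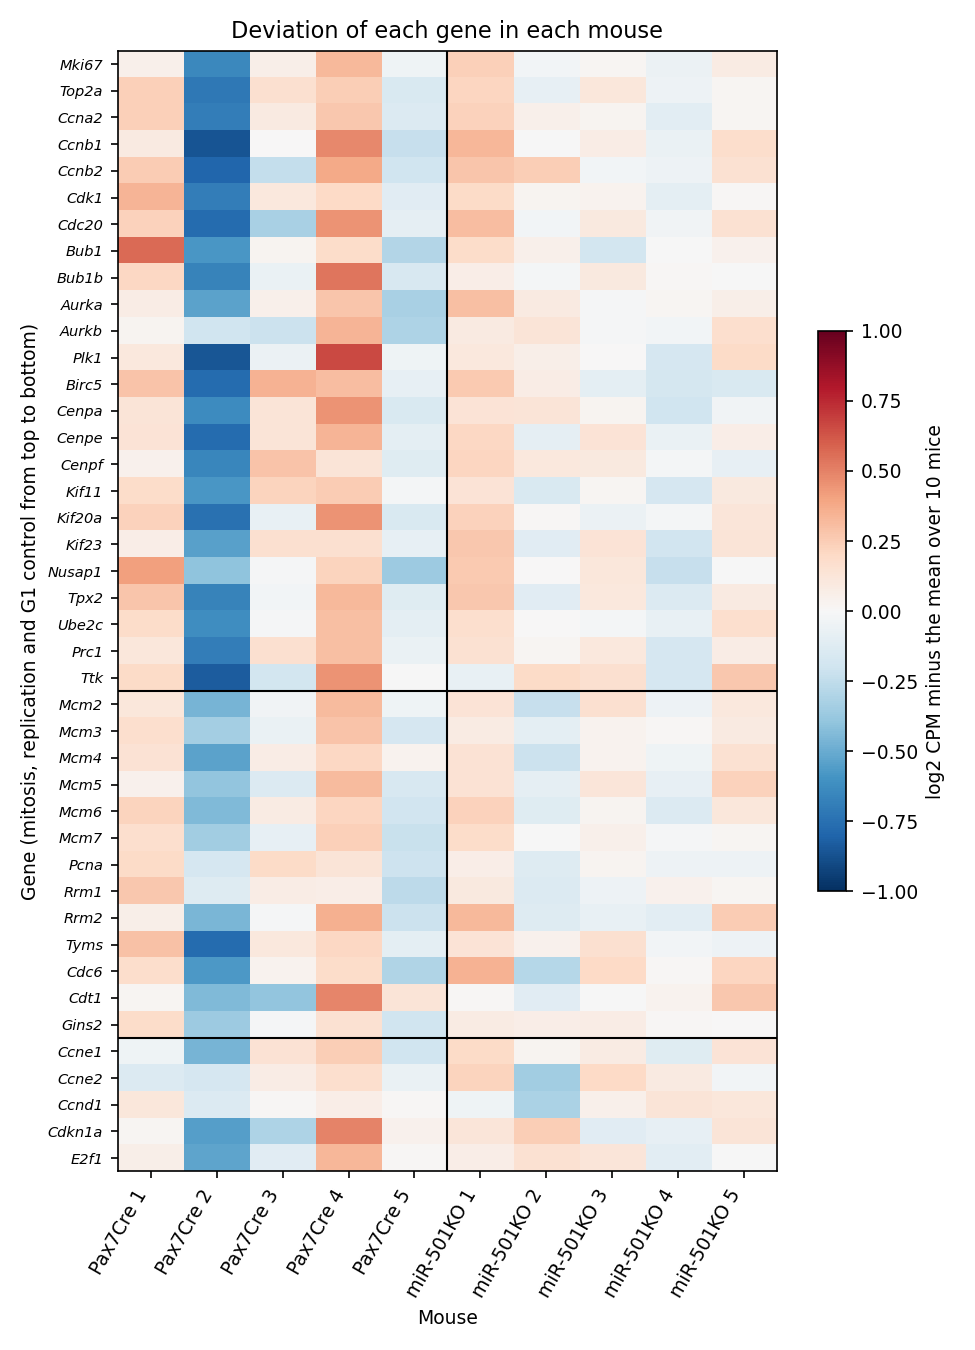
Deviation of each of the 42 genes (listed from top to bottom as mitosis, replication and G1 control) from its mean over 10 mice (columns, 5 Pax7Cre and 5 miR-501KO), as log2 CPM on a colour scale from −1 to 1. Pax7Cre mouse 2 is blue for all 42 genes, most deeply among the mitosis genes (median −0.68, against −0.44 for replication genes), and Pax7Cre mouse 4 is red in all 42.

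Between genotypes, none of the 42 genes passed the test: 0 were higher and 0 were lower in miR-501KO at an unadjusted p under 0.05 in edgeR's quasi-likelihood test, and the adjusted p of all 42 was 1. Over all 14410 genes the same test called 55 higher (0.382%) and 96 lower (0.666%) at an unadjusted p under 0.05, and 0 (0%) at an adjusted p under 0.05. The unadjusted counts depended on single libraries, with 267 higher and 186 lower without Pax7Cre mouse 2 and 228 higher and 242 lower without Pax7Cre mouse 4. DESeq2, edgeR's likelihood ratio test, the robust quasi-likelihood test and limma with voom weights also called 0 of the 42 at an unadjusted p under 0.05 and 0 genes overall at an adjusted p under 0.05. The groups overlapped for 42 of 42 genes, as they did for all but 20 of the 14410 genes tested (0.139%). The smallest edgeR p was 0.283, for Aurka. An exact two-sided permutation test on CPM, whose smallest possible p with 5 against 5 mice is 0.00794, gave p from 0.262 to 0.984.

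Log2 fold changes, miR-501KO minus Pax7Cre, lay between −0.08 and 0.18, and 34 of 42 (81%) were above 0, against 47.9% of all genes tested, whose median was −0.00. Above 0 were 11 of 42 without Pax7Cre mouse 2, 38 without Pax7Cre mouse 4, 39 without Pax7Cre mouse 1 and 25 without mice 2 and 4. The 95% intervals, which reached −0.47 at the lowest and 0.57 at the highest, show how large a difference in either direction the 5 mice of each group left possible, and a p above 0.05 does not show that values did not differ.

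**Figure D2:**
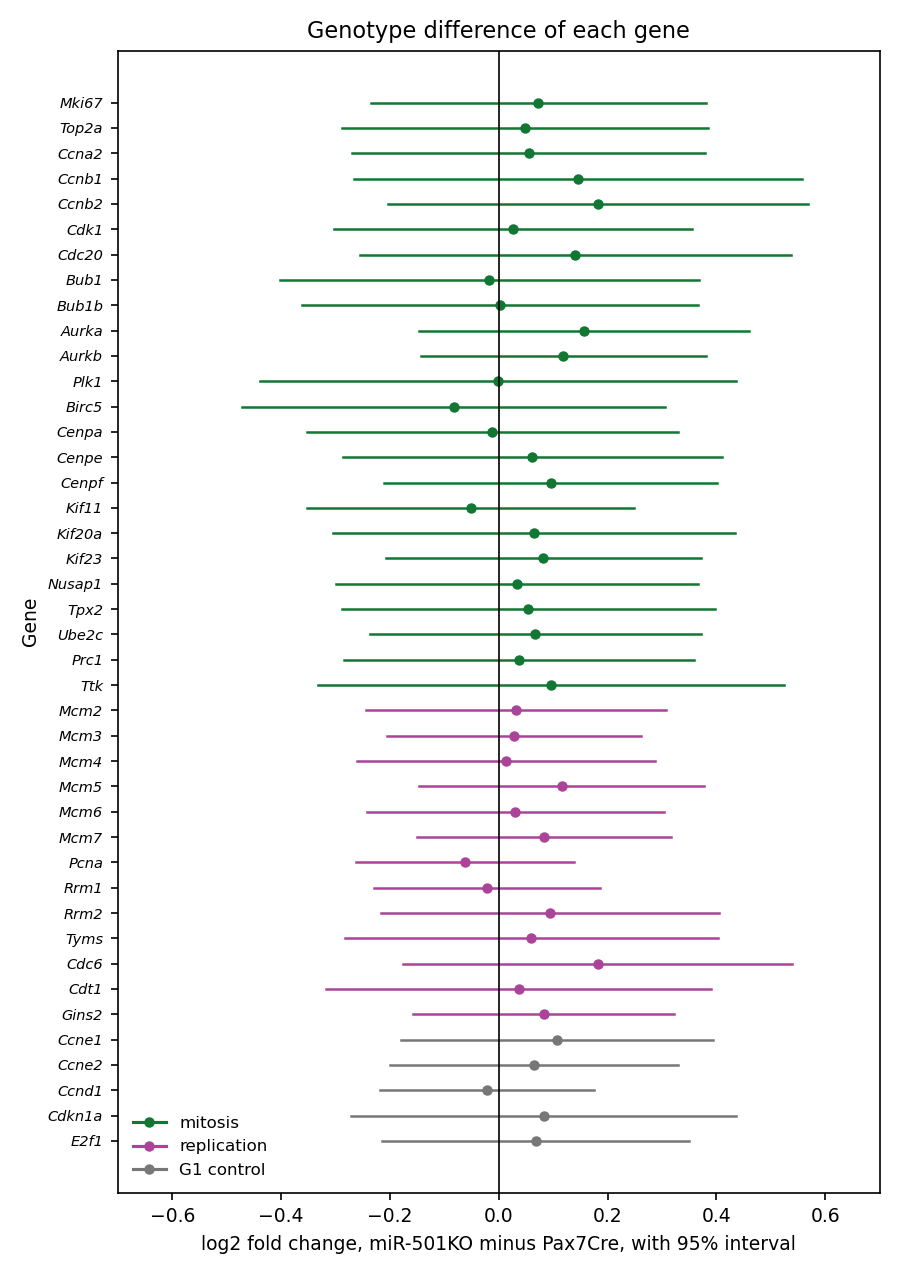
Log2 fold change of each of the 42 genes, miR-501KO minus Pax7Cre, as points with 95% intervals from edgeR's quasi-likelihood fit (5 against 5 mice), coloured by role. Every interval includes 0; the points lie between −0.08 and 0.18.

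The mitosis genes were the group with the largest spread between mice. Mki67, whose protein coats mitotic chromosomes and marks cells in cycle, had 136, 84.004, 137, 165 and 128 CPM in Pax7Cre mice 1 to 5 and 155, 129, 133, 126 and 139 CPM in miR-501KO mice 1 to 5. Pax7Cre mouse 2 was the lowest and Pax7Cre mouse 4 the highest of the 10, and the 5 miR-501KO values sat inside that range. Means were 129.7 ± 29.1 CPM (SD, n = 5) in Pax7Cre and 136 ± 11.5 CPM (SD, n = 5) in miR-501KO, a log2 fold change of 0.07 ± 0.14 (SE; p = 0.619 by edgeR, exact permutation p = 0.73). Top2a, the topoisomerase that untangles sister chromosomes, had 98.1, 50.6, 92.9, 98.4 and 74.6 CPM in Pax7Cre mice 1 to 5 and 96.5, 78.2, 89.99, 80.1 and 84.04 CPM in miR-501KO mice 1 to 5. The same control mice, 2 and 4, were at the ends, with Pax7Cre mouse 1 next to mouse 4, and the groups overlapped. Top2a averaged 82.9 ± 20.5 CPM (SD, n = 5) in Pax7Cre and 85.8 ± 7.51 CPM (SD, n = 5) in miR-501KO, a log2 fold change of 0.05 ± 0.16 (SE; p = 0.758 by edgeR, exact permutation p = 0.809). Cdk1, the kinase that drives cells into mitosis, had 40.4, 19.7, 34.2, 36.6 and 29.4 CPM in Pax7Cre mice 1 to 5 and 36.3, 32.4, 32.6, 29.8 and 32.2 CPM in miR-501KO mice 1 to 5. Here Pax7Cre mouse 1 was the highest and mouse 2 the lowest, and all miR-501KO values lay between them. Cdk1 averaged 32.1 ± 7.99 CPM (SD, n = 5) in Pax7Cre and 32.7 ± 2.35 CPM (SD, n = 5) in miR-501KO, a log2 fold change of 0.03 ± 0.15 (SE; p = 0.865 by edgeR, exact permutation p = 0.881). Without Pax7Cre mouse 2 the log2 fold changes of Mki67, Top2a and Cdk1 were −0.05, −0.09 and −0.11 (0.17, 0.12 and 0.08 without Pax7Cre mouse 4), and that of Cdk1 was also below 0 without Pax7Cre mouse 5 (−0.00) or without miR-501KO mouse 1 (−0.02).

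The 3 mitosis genes with the smallest p were Aurka, Ccnb2 and Aurkb. Aurka, the kinase of centrosomes and spindle poles, had 13.7, 8.92, 13.5, 15.8 and 10.4 CPM in Pax7Cre mice 1 to 5 and 16.01, 13.8, 12.9, 13.2 and 13.6 CPM in miR-501KO mice 1 to 5. Its lowest value was in Pax7Cre mouse 2, its highest in miR-501KO mouse 1, and 4 of the miR-501KO values fell within the control range. Aurka averaged 12.4 ± 2.75 CPM (SD, n = 5) in Pax7Cre and 13.9 ± 1.24 CPM (SD, n = 5) in miR-501KO, a log2 fold change of 0.16 ± 0.14 (SE; p = 0.283 by edgeR, exact permutation p = 0.325), with a 95% interval from −0.15 to 0.46. Ccnb2, a B-type cyclin that pairs with Cdk1, had 21.7, 10.4, 15.4, 23.5 and 15.8 CPM in Pax7Cre mice 1 to 5 and 21.9, 21.5, 17.7, 17.5 and 20.1 CPM in miR-501KO mice 1 to 5. The controls were scattered, with mice 1 and 4 high and mouse 2 lowest, while the miR-501KO values were close together within the control range. Ccnb2 averaged 17.4 ± 5.27 CPM (SD, n = 5) in Pax7Cre and 19.8 ± 2.05 CPM (SD, n = 5) in miR-501KO, a log2 fold change of 0.18 ± 0.18 (SE; p = 0.325 by edgeR, exact permutation p = 0.365), the largest fold change of the 42 genes. Aurkb, the kinase of the chromosomal passenger complex, had 12.2, 10.4, 10.3, 15.2 and 9.65 CPM in Pax7Cre mice 1 to 5 and 12.7, 13.1, 11.8, 11.7 and 13.4 CPM in miR-501KO mice 1 to 5. Mouse 5 was the lowest control here, near mice 2 and 3, and mouse 4 the highest, so Aurkb was the only mitosis gene whose lowest value was not in Pax7Cre mouse 2. Aurkb averaged 11.5 ± 2.23 CPM (SD, n = 5) in Pax7Cre and 12.6 ± 0.761 CPM (SD, n = 5) in miR-501KO, a log2 fold change of 0.12 ± 0.12 (SE; p = 0.345 by edgeR, exact permutation p = 0.389). When Pax7Cre mouse 4 was left out, Aurkb was higher in miR-501KO by 0.24 (log2, edgeR p = 0.0272, exact permutation p = 0.0317), with an edgeR adjusted p of 0.996. It was 1 of 2 genes of the set past an unadjusted edgeR p of 0.05 in that setting. There 228 of all 14487 genes tested were higher at that p. Aurka and Ccnb2 also moved, to 0.06 and 0.05 without Pax7Cre mouse 2 and to 0.26 and 0.32 without Pax7Cre mouse 4, and Aurkb was at 0.06 without Pax7Cre mouse 5.

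The remaining 18 mitosis genes had p of at least 0.456, and each had its lowest value in Pax7Cre mouse 2. They include the cyclins Ccna2 and Ccnb1, the spindle checkpoint genes Bub1, Bub1b and Ttk, the activator and conjugating enzyme of the anaphase-promoting complex Cdc20 and Ube2c, the mitotic kinase Plk1, the passenger subunit Birc5, the centromere genes Cenpa, Cenpe and Cenpf, the motors Kif11, Kif20a and Kif23, and the spindle proteins Nusap1, Tpx2 and Prc1. Over all 24 mitosis genes the median log2 fold change was 0.06, with 19 of 24 above 0, and it was −0.08 without Pax7Cre mouse 2, 0.15 without Pax7Cre mouse 4 and 0.01 without both. The widest swing was in Plk1, from 9.08 CPM in Pax7Cre mouse 2 to 26.1 CPM in Pax7Cre mouse 4, a ratio of 2.87, with 17.8, 17.1, 16.5, 14.6 and 18.9 CPM in miR-501KO mice 1 to 5. The ratio of highest to lowest mouse was 2.56 for Ccnb1 and, at its smallest, 1.57 for Aurkb. The SD of log2 CPM was larger among Pax7Cre than among miR-501KO mice for 24 of 24 mitosis genes, compared with 79.2% of all genes tested. Without Pax7Cre mouse 2 it was larger for 22 of 24, all but Kif11 and Kif23, compared with 69.6% of all genes tested. The SD of the mitosis score in Pax7Cre mice then went from 0.39 to 0.21, against 0.11 in miR-501KO mice.

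Replication genes spread less between mice. Pcna, the sliding clamp of DNA polymerases, had 66.2, 51.4, 66.2, 63.4 and 50.1 CPM in Pax7Cre mice 1 to 5 and 60.8, 53, 59.2, 55.8 and 55.9 CPM in miR-501KO mice 1 to 5. The lowest value was in Pax7Cre mouse 5, just under mouse 2, and the miR-501KO values lay inside the control range. Pcna averaged 59.5 ± 8.04 CPM (SD, n = 5) in Pax7Cre and 56.9 ± 3.08 CPM (SD, n = 5) in miR-501KO, a log2 fold change of −0.06 ± 0.09 (SE; p = 0.51 by edgeR, exact permutation p = 0.548). Mcm2, a subunit of the replicative helicase, had 35.1, 23.5, 31.6, 40.4 and 31.5 CPM in Pax7Cre mice 1 to 5 and 35.7, 27.7, 36.3, 31.4 and 34.96 CPM in miR-501KO mice 1 to 5. Control mice 2 and 4 were at the ends, and miR-501KO mouse 2 was the lowest of its group. Mcm2 averaged 32.4 ± 6.16 CPM (SD, n = 5) in Pax7Cre and 33.2 ± 3.64 CPM (SD, n = 5) in miR-501KO, a log2 fold change of 0.03 ± 0.13 (SE; p = 0.806 by edgeR, exact permutation p = 0.873); the fold change was −0.07 without Pax7Cre mouse 2 and −0.00 without miR-501KO mouse 3. Rrm2, the inducible subunit of ribonucleotide reductase that makes deoxynucleotides, had 31.98, 22.4, 30.6, 39.3 and 26.5 CPM in Pax7Cre mice 1 to 5 and 38.5, 28.1, 29.2, 28.7 and 36.7 CPM in miR-501KO mice 1 to 5. In both groups 1 or more mice were high, Pax7Cre mouse 4 and miR-501KO mice 1 and 5, and the groups overlapped. Rrm2 averaged 30.2 ± 6.33 CPM (SD, n = 5) in Pax7Cre and 32.2 ± 4.97 CPM (SD, n = 5) in miR-501KO, a log2 fold change of 0.09 ± 0.14 (SE; p = 0.521 by edgeR, exact permutation p = 0.595). Rrm2 was at 0.00 without Pax7Cre mouse 2 and 0.21 without Pax7Cre mouse 4, and Pcna ranged from −0.12 without Pax7Cre mouse 5 to −0.02 without Pax7Cre mouse 3.

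Cdc6, Mcm5 and Mcm7 had the smallest p among replication genes. Cdc6, which loads the Mcm helicase on origins, had 7.88, 4.64, 7.13, 7.94 and 5.63 CPM in Pax7Cre mice 1 to 5 and 8.89, 5.71, 7.995, 7.05 and 8.09 CPM in miR-501KO mice 1 to 5. Pax7Cre mouse 2 was lowest and miR-501KO mouse 1 highest, and miR-501KO mouse 2 was next to the low controls. Cdc6 averaged 6.65 ± 1.46 CPM (SD, n = 5) in Pax7Cre and 7.55 ± 1.22 CPM (SD, n = 5) in miR-501KO, a log2 fold change of 0.18 ± 0.17 (SE; p = 0.292 by edgeR, exact permutation p = 0.262). Mcm5 had 34.7, 25.5, 30.6, 42 and 30.1 CPM in Pax7Cre mice 1 to 5 and 37.2, 31.6, 36.6, 31.8 and 39.4 CPM in miR-501KO mice 1 to 5. Its controls other than mice 1 and 4 were below all 5 miR-501KO mice, and Pax7Cre mouse 4 was the highest of all. Mcm5 averaged 32.6 ± 6.19 CPM (SD, n = 5) in Pax7Cre and 35.3 ± 3.46 CPM (SD, n = 5) in miR-501KO, a log2 fold change of 0.12 ± 0.12 (SE; p = 0.356 by edgeR, exact permutation p = 0.397), and without Pax7Cre mouse 4 the log2 fold change was 0.23 (edgeR p = 0.0448, exact permutation p = 0.0714), the other of those 2 genes. Mcm7 had 37.6, 26.3, 31.6, 39.4 and 28.6 CPM in Pax7Cre mice 1 to 5 and 37.98, 33.5, 34.7, 33.2 and 33.99 CPM in miR-501KO mice 1 to 5. The miR-501KO values were again inside the control range, with 4 of them near each other. Mcm7 averaged 32.7 ± 5.66 CPM (SD, n = 5) in Pax7Cre and 34.7 ± 1.94 CPM (SD, n = 5) in miR-501KO, a log2 fold change of 0.08 ± 0.11 (SE; p = 0.459 by edgeR, exact permutation p = 0.46). Leaving out Pax7Cre mouse 2 brought the log2 fold changes of Cdc6, Mcm5 and Mcm7 to 0.08, 0.04 and 0.01, and Mcm7 was at 0.16 without Pax7Cre mouse 4.

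Over the 13 replication genes, which also include the helicase subunits Mcm3, Mcm4 and Mcm6, the helicase partner Gins2, the loader Cdt1, the large reductase subunit Rrm1 and thymidylate synthase, Tyms, the median log2 fold change was 0.04 with 11 of 13 above 0. It was −0.06 without Pax7Cre mouse 2, 0.12 without Pax7Cre mouse 4 and 0.04 without both. The ratio of highest to lowest mouse ran from 1.32 for Pcna to 2.10 for Tyms, with a median of 1.64, compared with 2.03 for the mitosis genes. The SD was larger among Pax7Cre mice for 13 of 13, compared with 79.2% of all genes tested. Once Pax7Cre mouse 2 was left out it was larger for 11 of 13, all but Mcm4 and Cdc6, compared with 69.6% of all genes tested. Tyms behaved like the mitosis genes, with 10.2 CPM in Pax7Cre mouse 2 and 21.5, 18.9, 20.3 and 16.4 CPM in the other Pax7Cre mice, 1, 3, 4 and 5. In miR-501KO mice 1 to 5 Tyms was close to even, at 19.3, 18.03, 19.6, 17.2 and 16.95 CPM. Mcm4 in Pax7Cre mouse 2 was far from its group, at 23.1 CPM against 37.2, 35.2, 38.7 and 34.4 CPM in the same other mice.

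The G1 genes did not follow 1 pattern. Ccnd1, the cyclin D that links growth signals to the cell cycle, had 97.01, 81.4, 90.4, 94.03 and 90.3 CPM in Pax7Cre mice 1 to 5 and 86.9, 71.8, 92.8, 97.8 and 97.1 CPM in miR-501KO mice 1 to 5. The lowest mouse was miR-501KO mouse 2 and the highest miR-501KO mouse 4, so the control mice were inside the miR-501KO range. Ccnd1 averaged 90.6 ± 5.86 CPM (SD, n = 5) in Pax7Cre and 89.3 ± 10.7 CPM (SD, n = 5) in miR-501KO, a log2 fold change of −0.02 ± 0.09 (SE; p = 0.815 by edgeR, exact permutation p = 0.825); the sign changed without Pax7Cre mouse 1 (0.00) and without miR-501KO mouse 2 (0.05). Cdkn1a, a CDK inhibitor that stops the cycle and a target of p53, also marks myogenic cells that leave the cycle, and it had 189, 127, 149.98, 262 and 191 CPM in Pax7Cre mice 1 to 5 and 202, 219.9, 172, 175 and 203 CPM in miR-501KO mice 1 to 5. Pax7Cre mouse 2 was lowest and mouse 4 highest, as in the mitosis genes, although Cdkn1a holds cells out of division. Cdkn1a averaged 184 ± 51.4 CPM (SD, n = 5) in Pax7Cre and 194 ± 20.2 CPM (SD, n = 5) in miR-501KO, a log2 fold change of 0.08 ± 0.16 (SE; p = 0.621 by edgeR, exact permutation p = 0.691), and −0.03 on the log2 scale without Pax7Cre mouse 2. E2f1, a transcription factor of S phase genes, had 17.8, 11.8, 15.7, 21.5 and 17.2 CPM in Pax7Cre mice 1 to 5 and 17.9, 18.9, 18.6, 15.8 and 16.95 CPM in miR-501KO mice 1 to 5. It was lowest in Pax7Cre mouse 2 and highest in Pax7Cre mouse 4, with all miR-501KO mice between. E2f1 averaged 16.8 ± 3.51 CPM (SD, n = 5) in Pax7Cre and 17.6 ± 1.25 CPM (SD, n = 5) in miR-501KO, a log2 fold change of 0.07 ± 0.13 (SE; p = 0.612 by edgeR, exact permutation p = 0.635), and −0.04 on the log2 scale without Pax7Cre mouse 2. Without Pax7Cre mouse 4 Cdkn1a was at 0.25 and E2f1 at 0.17.

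The cyclins E open S phase with Cdk2. Ccne1 had 7.97, 5.91, 9.09, 9.75 and 7.15 CPM in Pax7Cre mice 1 to 5 and 9.37, 8.35, 8.70, 7.52 and 9.03 CPM in miR-501KO mice 1 to 5. Pax7Cre mouse 2 was the lowest and mouse 4 the highest, and the groups overlapped. Ccne1 averaged 7.97 ± 1.53 CPM (SD, n = 5) in Pax7Cre and 8.59 ± 0.707 CPM (SD, n = 5) in miR-501KO, a log2 fold change of 0.11 ± 0.13 (SE; p = 0.434 by edgeR, exact permutation p = 0.46). Ccne2 had 8.02, 7.86, 9.30, 9.95 and 8.42 CPM in Pax7Cre mice 1 to 5 and 10.3, 6.94, 10.2, 9.43 and 8.69 CPM in miR-501KO mice 1 to 5. The lowest and highest Ccne2 values were both in miR-501KO mice, 2 and 1. Ccne2 averaged 8.71 ± 0.889 CPM (SD, n = 5) in Pax7Cre and 9.11 ± 1.38 CPM (SD, n = 5) in miR-501KO, a log2 fold change of 0.06 ± 0.12 (SE; p = 0.605 by edgeR, exact permutation p = 0.595). For the 5 G1 control genes the median log2 fold change was 0.07, with 4 of 5 above 0, and it was −0.03 without Pax7Cre mouse 2, 0.17 without Pax7Cre mouse 4 and 0.09 without both. Ccne1 was at 0.02 without Pax7Cre mouse 2 and 0.19 without Pax7Cre mouse 4, and Ccne2 ranged from 0.01 without miR-501KO mouse 1 to 0.15 without miR-501KO mouse 2. The SD of log2 CPM was larger among Pax7Cre mice for 3 of 5 G1 control genes (60%), compared with 79.2% of all genes tested, and smaller for Ccne2 and Ccnd1.

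Replication and mitosis genes were then compared within each mouse. The summed level of the 24 mitosis genes was 809, 449, 749.5, 891 and 657 CPM in Pax7Cre mice 1 to 5 and 828, 712, 738, 671 and 746 CPM in miR-501KO mice 1 to 5. That of the 13 replication genes was 472, 328, 426, 487 and 374 CPM in Pax7Cre mice 1 to 5 and 463, 385, 429, 408 and 444 CPM in miR-501KO mice 1 to 5. The ratio of the replication sum to the mitosis sum was 0.583, 0.731, 0.568, 0.547 and 0.569 in Pax7Cre mice 1 to 5 and 0.559, 0.541, 0.582, 0.608 and 0.596 in miR-501KO mice 1 to 5. Pax7Cre mouse 2 had the highest ratio, and the other 9 mice lay between 0.541 and 0.608. Relative to the mean of the other 9 mice, the median mitosis gene was at 0.588 in Pax7Cre mouse 2 and the median replication gene at 0.707.

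As mean log2 CPM, the mitosis score was 4.75, 3.90, 4.59, 4.89 and 4.41 in Pax7Cre mice 1 to 5 and 4.76, 4.58, 4.60, 4.46 and 4.63 in miR-501KO mice 1 to 5. The replication score was 4.89, 4.32, 4.72, 4.98 and 4.59 in Pax7Cre mice 1 to 5 and 4.89, 4.62, 4.79, 4.70 and 4.84 in miR-501KO mice 1 to 5. The mitosis score spanned 1.00 log2 units over the 10 mice and the replication score 0.66, with the same mice, Pax7Cre 2 and 4, at both ends. Replication minus mitosis was 0.14, 0.42, 0.13, 0.08 and 0.17 in Pax7Cre mice 1 to 5 and 0.13, 0.04, 0.19, 0.24 and 0.21 in miR-501KO mice 1 to 5. By genotype that difference was 0.19 ± 0.13 (SD, n = 5) in Pax7Cre and 0.16 ± 0.08 (SD, n = 5) in miR-501KO mice, −0.03 apart, which is less than the spread within either group. Without Pax7Cre mouse 2 the Pax7Cre mean was 0.13 ± 0.04 (SD, n = 4) and the miR-501KO mean was above it by 0.03.

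Over the 10 mice the 2 scores followed each other, with Pearson's r = 0.959 and Spearman's rho = 0.976 (n = 10), and r = 0.957 on deviations from the genotype means. Without Pax7Cre mice 2 and 4, the 2 farthest from the median mitosis score, r was 0.869 (n = 8). The slope of the replication score on the mitosis score was 0.68. Both scores come from the same libraries and share their scaling, so these values describe the mice and are not a test. Gene by gene, the slope on the mitosis score (leaving the gene itself out) had a median of 1.00 for mitosis genes (0.46 for Aurkb to 1.32 for Ccnb1), 0.68 for replication genes (0.32 for Rrm1 to 1.03 for Tyms) and 0.72 for G1 control genes (0.18 for Ccnd1 to 0.84 for Cdkn1a). Correlations with the mitosis score were lowest for Ccnd1 (r = 0.35) and Ccne2 (r = 0.414), across the same 10 mice.

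**Figure D3:**
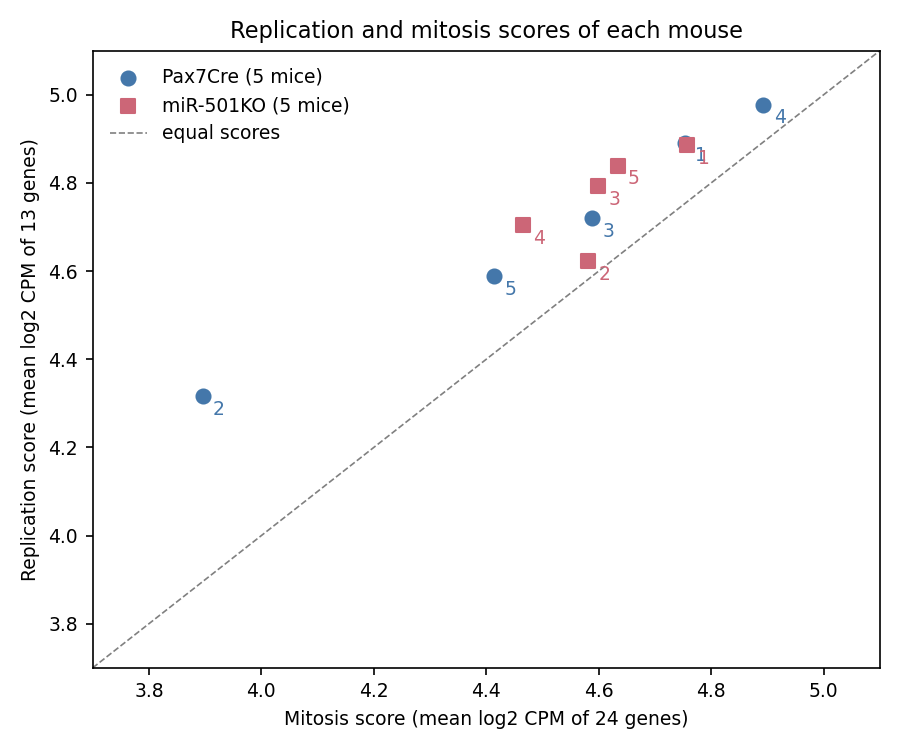
Replication score against mitosis score, each the mean log2 CPM of its genes, for 5 Pax7Cre (circles) and 5 miR-501KO mice (squares), numbered by mouse; the dashed line marks equal scores. All 10 mice lie above the line, Pax7Cre mouse 2 farthest from it (0.42); Pax7Cre mice 2 and 5 lie below every miR-501KO mouse on both scores, and Pax7Cre mouse 4 lies above every miR-501KO mouse.

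Wider lists of the same pathways were examined beside the 42 genes. Of 50 other mitosis genes, all tested, 0 were higher and 0 lower at an unadjusted p under 0.05 by edgeR. Their median log2 fold change was 0.06, and 94% had their lowest value in Pax7Cre mouse 2. Espl1, the protease that splits cohesin, had the smallest p on the higher side, with 12.1, 9.34, 12.1, 17.9 and 13.5 CPM in Pax7Cre mice 1 to 5 and 15.4, 14.9, 14.4, 14.3 and 15.2 CPM in miR-501KO mice 1 to 5. For Espl1 this was a log2 fold change of 0.19 ± 0.14 (SE; p = 0.19 by edgeR, exact permutation p = 0.238). Smc4, a condensin subunit, had the smallest p on the lower side, with 65.8, 49.8, 79.8, 64.1 and 57.6 CPM in Pax7Cre mice 1 to 5 and 68.3, 58.99, 63.7, 54.2 and 60.5 CPM in miR-501KO mice 1 to 5. For Smc4 this was a log2 fold change of −0.05 ± 0.11 (SE; p = 0.653 by edgeR, exact permutation p = 0.714). Both were lowest in Pax7Cre mouse 2 and the groups overlapped. Of 50 other replication genes, all tested, 0 passed by edgeR in either direction, the median was 0.02, and 54% were lowest in Pax7Cre mouse 2. Prim2, a primase subunit, had 12.99, 7.86, 9.88, 12.8 and 9.06 CPM in Pax7Cre mice 1 to 5 and 14.2, 10.7, 12.5, 11.4 and 11.6 CPM in miR-501KO mice 1 to 5. For Prim2 this was a log2 fold change of 0.20 ± 0.14 (SE; p = 0.187 by edgeR, exact permutation p = 0.23). Orc4, a subunit of the origin recognition complex, had 24.5, 25.9, 30.2, 20.8 and 22.7 CPM in Pax7Cre mice 1 to 5 and 25.2, 22.7, 20.9, 24.7 and 20.3 CPM in miR-501KO mice 1 to 5. For Orc4 this was a log2 fold change of −0.12 ± 0.10 (SE; p = 0.26 by edgeR, exact permutation p = 0.325), and, unlike the helicase genes, was not lowest in Pax7Cre mouse 2. The other replication minus other mitosis score was highest in Pax7Cre mouse 2 as well, at 0.27, against −0.21 to −0.01 in the remaining 9 mice.

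A further list of 24 genes held cyclins, CDKs, the Rb family and E2F factors. It also held Tfdp1, Tfdp2, Lin9, Lin37, Lin54, Cdc25a, Wee1, Skp2 and Myc. Of these 24 genes, 0 passed an unadjusted p under 0.05 by edgeR in either direction, and the median log2 fold change was 0.04. Cdk6, a partner of cyclin D, had 26.5, 19.8, 28.9, 33.7 and 30.5 CPM in Pax7Cre mice 1 to 5 and 34.1, 35.96, 27.7, 30.9 and 29.5 CPM in miR-501KO mice 1 to 5. For Cdk6 this was a log2 fold change of 0.18 ± 0.13 (SE; p = 0.179 by edgeR, exact permutation p = 0.214). Rbl2, an Rb family member of the DREAM complex, had 41.4, 49.3, 42.6, 40.2 and 44.1 CPM in Pax7Cre mice 1 to 5 and 41.1, 43.2, 37.5, 40.4 and 41.4 CPM in miR-501KO mice 1 to 5. For Rbl2 this was a log2 fold change of −0.10 ± 0.07 (SE; p = 0.205 by edgeR, exact permutation p = 0.175), and its highest value was in Pax7Cre mouse 2, where the mitosis genes were lowest. Of 6 CDK inhibitors beside Cdkn1a, 0 were higher and 1, Cdkn1b, was lower at an unadjusted p under 0.05 by edgeR. Of all 14410 genes tested, 0.382% were higher and 0.666% lower at that p. Cdkn1b, an inhibitor of Cdk2 complexes, had 47.97, 53.7, 54.2, 50.9 and 49.95 CPM in Pax7Cre mice 1 to 5 and 47.3, 48.3, 45.1, 43.6 and 45.8 CPM in miR-501KO mice 1 to 5. The miR-501KO values lay low, and the highest miR-501KO value was above only the lowest Pax7Cre value. Cdkn1b averaged 51.3 ± 2.60 CPM (SD, n = 5) in Pax7Cre and 46.02 ± 1.83 CPM (SD, n = 5) in miR-501KO, a log2 fold change of −0.16 ± 0.06 (SE; p = 0.0268 by edgeR, exact permutation p = 0.0159), and its adjusted p in edgeR was 1. Cdkn2b, an inhibitor of Cdk4 and Cdk6, had 2.64, 1.32, 2.85, 3.57 and 2.79 CPM in Pax7Cre mice 1 to 5 and 3.32, 3.30, 3.54, 2.86 and 3.09 CPM in miR-501KO mice 1 to 5. For Cdkn2b this was a log2 fold change of 0.28 ± 0.21 (SE; p = 0.198 by edgeR, exact permutation p = 0.143). Of 16 p53 targets other than Cdkn1a, 0 passed an unadjusted p under 0.05 by edgeR in either direction, with a median of 0.04. Mdm2, the ligase that degrades p53, had 43.1, 49.2, 43.8, 45.3 and 48.3 CPM in Pax7Cre mice 1 to 5 and 49.6, 50.97, 47.97, 50.6 and 48.2 CPM in miR-501KO mice 1 to 5. For Mdm2 this was a log2 fold change of 0.11 ± 0.06 (SE; p = 0.114 by edgeR, exact permutation p = 0.0476). Phlda3, an inhibitor of Akt, had 94.9, 159.7, 87.3, 94.8 and 105 CPM in Pax7Cre mice 1 to 5 and 70.6, 83.7, 104, 131 and 108 CPM in miR-501KO mice 1 to 5. For Phlda3 this was a log2 fold change of −0.12 ± 0.19 (SE; p = 0.524 by edgeR, exact permutation p = 0.627).

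Markers of the cell types in the muscle were summed in each mouse, because several moved with the mitosis genes. Correlations with the mitosis score used the mean log2 CPM of each list as its score. Each r was also taken without the 2 mice farthest from the median of that marker score. The mice left out therefore differ between lists. The 15 mature fibre markers, all with reads in every mouse and led by Tnnt3, summed to 36515, 67263, 35254, 25461 and 42166 CPM in Pax7Cre mice 1 to 5 and 39738, 40221, 42195, 50742 and 44585 CPM in miR-501KO mice 1 to 5. They were highest in Pax7Cre mouse 2 and lowest in Pax7Cre mouse 4, the reverse of the mitosis genes. As mean log2 CPM they went against the mitosis score with r = −0.867 and rho = −0.673 over the 10 mice, and r = −0.485 (n = 8) without Pax7Cre mouse 2 and Pax7Cre mouse 4. The list of 41 sarcomere genes holds 4 of these markers, and of its genes 1 was higher and 0 lower at an unadjusted p under 0.05 by edgeR. The same test called 0.382% of all 14410 genes tested higher and 0.666% lower. The 8 myogenic progenitor markers, all with reads in every mouse and led by Chrna1, summed to 814, 570.2, 707, 1095 and 817 CPM in Pax7Cre mice 1 to 5 and 881, 861, 779, 803 and 874 CPM in miR-501KO mice 1 to 5. By this sum Pax7Cre mice 2 and 4 were again the lowest and highest. Of the 8 markers, 6 were lowest in Pax7Cre mouse 2. Pax7 itself was lowest in Pax7Cre mouse 1, at 18.7 CPM against 22.6 CPM in Pax7Cre mouse 2, and Myod1 was lowest in Pax7Cre mouse 3. The progenitor score gave r = 0.812 and rho = 0.673 over the 10 mice, and r = 0.259 (n = 8) without Pax7Cre mouse 2 and Pax7Cre mouse 4. The 6 regenerating fibre markers, all with reads in every mouse and led by Actc1, summed to 7141, 6235, 7748, 6975 and 8612 CPM in Pax7Cre mice 1 to 5 and 7873, 7792, 8591, 6161 and 7984 CPM in miR-501KO mice 1 to 5. These were lowest in miR-501KO mouse 4 and next lowest in Pax7Cre mouse 2, with r = 0.738 and rho = 0.164 over the 10 mice, and r = −0.504 (n = 8) without Pax7Cre mouse 2 and miR-501KO mouse 4. In a whole muscle, fewer dividing cells cannot be told apart from less RNA of these genes in each cell, and the part of the fibre and progenitor markers in the mitosis and replication levels was not tested.

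The 11 macrophage markers, all with reads in every mouse and led by Lyz2, summed to 7239, 5158, 5638, 6179 and 5528 CPM in Pax7Cre mice 1 to 5 and 6403, 6323, 5575, 5407 and 5731 CPM in miR-501KO mice 1 to 5. By this sum Pax7Cre mouse 2 was the lowest and mouse 1 the highest. Of the 11 markers, 5 were lowest in Pax7Cre mouse 2, whereas C1qb, C1qc and Cd14 were lowest in Pax7Cre mouse 3. The macrophage score followed the mitosis score with r = 0.817 and rho = 0.867 over the 10 mice, and r = 0.788 (n = 8) without Pax7Cre mouse 1 and Pax7Cre mouse 4. Those 8 mice still held Pax7Cre mouse 2, the lowest in mitosis score, so this r cannot be set beside those taken without that mouse. The 6 endothelial markers, all with reads in every mouse and led by Cdh5, summed to 665, 755, 648, 597 and 723 CPM in Pax7Cre mice 1 to 5 and 616, 602, 743, 682 and 639 CPM in miR-501KO mice 1 to 5. By this sum they were highest in Pax7Cre mouse 2 and lowest in Pax7Cre mouse 4. Kdr, Tek and Vwf were highest in Pax7Cre mouse 2, whereas Cdh5 was highest in Pax7Cre mouse 5, Pecam1 in miR-501KO mouse 3 and Emcn in Pax7Cre mouse 1. The endothelial score gave r = −0.833 and rho = −0.709 over the 10 mice, and r = −0.474 (n = 8) without Pax7Cre mouse 2 and Pax7Cre mouse 4. The 4 tendon markers, all with reads in every mouse and led by Fmod, summed to 225, 132, 235, 202 and 193 CPM in Pax7Cre mice 1 to 5 and 213, 198, 224, 153 and 213 CPM in miR-501KO mice 1 to 5. Their lowest mice were Pax7Cre mouse 2 and miR-501KO mouse 4, with r = 0.809 and rho = 0.709 over the 10 mice, and r = 0.234 (n = 8) without Pax7Cre mouse 2 and miR-501KO mouse 4. The 5 Schwann cell markers, all with reads in every mouse and led by Pmp22, summed to 135, 149.6, 149, 133 and 126 CPM in Pax7Cre mice 1 to 5 and 129, 129, 124, 145 and 127 CPM in miR-501KO mice 1 to 5. They were highest in Pax7Cre mice 2 and 3 and gave r = −0.657 and rho = −0.551 over the 10 mice, and r = −0.384 (n = 8) without miR-501KO mouse 4 and Pax7Cre mouse 2. The part of these cell types in the levels of the cell cycle genes was not tested.

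Further lists were summed in the same way. The 8 fibro-adipogenic progenitor (FAP) markers, led by Col3a1, summed to 14421, 14103, 18556, 18492 and 18965 CPM in Pax7Cre mice 1 to 5 and 14968, 17246, 18089, 15726 and 17468 CPM in miR-501KO mice 1 to 5. The 6 mural cell markers, led by Acta2, summed to 1252, 1079, 1151, 1328 and 1271 CPM in Pax7Cre mice 1 to 5 and 1454, 1263, 1279, 1234 and 1282 CPM in miR-501KO mice 1 to 5. The 6 antigen presentation markers, led by Cd74, summed to 3043, 3893, 2054, 2495 and 2352 CPM in Pax7Cre mice 1 to 5 and 3272, 3079, 2492, 2716 and 3145 CPM in miR-501KO mice 1 to 5. Pax7Cre mouse 2 had the highest antigen presentation sum and the lowest FAP and mural sums, but only 1 of 8 FAP genes (Col1a1) and 1 of 6 mural genes (Acta2) were lowest there. By contrast Dcn, Lum, Pi16, Rgs5, Myh11 and Kcnj8 were highest there. Correlations with the mitosis score, taken on mean log2 CPM, where each gene has equal weight, were r = −0.387 and rho = 0.00606 over the 10 mice, and r = 0.194 (n = 8) without Pax7Cre mouse 3 and Pax7Cre mouse 2 for antigen presentation, whose sign thus turned. For FAP markers they were r = −0.511 and rho = −0.285 over the 10 mice, and r = −0.125 (n = 8) without Pax7Cre mouse 3 and Pax7Cre mouse 2. Mural markers gave r = −0.481 and rho = −0.479 over the 10 mice, and r = −0.406 (n = 8) without Pax7Cre mouse 1 and Pax7Cre mouse 5. On mean log2 CPM Pax7Cre mouse 2 was not the lowest for FAP or mural markers. The 8 T and NK cell markers, led by Cd4, summed to 60.4, 84.004, 54.04, 64.1 and 59.8 CPM in Pax7Cre mice 1 to 5 and 64.2, 65.5, 63.05, 44.3 and 63.6 CPM in miR-501KO mice 1 to 5. The 7 B and plasma cell markers, led by Cd79b, summed to 6.36, 6.97, 5.92, 6.54 and 5.34 CPM in Pax7Cre mice 1 to 5 and 7.64, 10.2, 7.66, 5.62 and 6.10 CPM in miR-501KO mice 1 to 5. Of 4 of them that were tested, 4 had a log2 fold change above 0, up to 0.98, and 1 was higher at an unadjusted p under 0.05 by edgeR, with an adjusted p of 1. Of all 14410 genes tested, 47.9% were above 0 and 0.382% were higher at that unadjusted p. The 6 neutrophil markers, led by Csf3r, summed to 32.2, 29.7, 34.4, 36.8 and 34.7 CPM in Pax7Cre mice 1 to 5 and 35.3, 36.9, 32.4, 27.3 and 31.7 CPM in miR-501KO mice 1 to 5. Ly6g was at 0 in 9 mice and Mpo at 0 in 1. Only 3 of the 6 neutrophil markers passed the filter and entered the score. They gave r = 0.352 and rho = 0.224 over the 10 mice, and r = 0.68 (n = 8) without Pax7Cre mouse 3 and miR-501KO mouse 3. T and NK markers gave r = −0.393 and rho = −0.103 over the 10 mice, and r = 0.105 (n = 8) without Pax7Cre mouse 2 and miR-501KO mouse 4. The 4 of 7 B and plasma cell markers that were tested gave r = 0.215 and rho = 0.358 over the 10 mice, and r = 0.199 (n = 8) without miR-501KO mouse 2 and Pax7Cre mouse 5. The 4 adipocyte markers, led by Fabp4, summed to 295, 363, 357, 191 and 311 CPM in Pax7Cre mice 1 to 5 and 223, 301, 324, 279.7 and 229 CPM in miR-501KO mice 1 to 5. The adipocyte sum, most of it Fabp4, was lowest in Pax7Cre mouse 4, whereas the other 3 markers were lowest in miR-501KO mouse 1. On mean log2 CPM adipocyte markers gave r = −0.452 and rho = −0.685 over the 10 mice, and r = −0.354 (n = 8) without miR-501KO mouse 1 and Pax7Cre mouse 1. The part of these cell types in the levels of the 42 genes was not tested. None of the sums given here passed an exact permutation test between genotypes (p from 0.191 to 0.905 with 5 against 5 mice, and 0.905 for each after Benjamini-Hochberg adjustment over 15 lists).

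Levels can be compared between genes only per length, as mean CPM per kb of annotated exon. On that scale Cdkn1a was the highest of the 42 genes at 53.2, followed by Pcna at 24.3, Ccnd1 at 19.1 and Mki67 at 13.2 CPM per kb. The lowest were Ttk at 1.23, Cdc6 at 1.36 and Cenpf at 1.55 CPM per kb. The median replication gene was at 7.61 and the median mitosis gene at 5.34 CPM per kb, and both groups spread widely, from 1.36 to 24.3 and from 1.23 to 13.2. A long annotated 3′ end that is not used in muscle lowers this value.

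Some members share bases with neighbouring genes, which matters because the strand setting of the counting is not given in the sources used here. Gins2 overlaps Gse1 on the opposite strand over 67.3% of its exon bases, Kif20a overlaps Cdc23 over 29.3%, Ccnd1 overlaps LTO1 over 23.4%, and Ube2c overlaps the fibre gene Tnnc2 over 22.8%. Ccne2, Ccna2, Prc1 and Mcm7 overlap opposite genes over 17.4, 12.5, 11.1 and 8.7%. Ube2c was among the 23 of 24 mitosis genes with their lowest value in Pax7Cre mouse 2, at 13.5 CPM. Whether reads of the neighbours entered the counts of Ube2c or of the other members was not tested. A Pcna pseudogene, Pcna-ps2, had 7 counts over the 10 mice, beside 12747 for Pcna.

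Promoter windows of 300 bases from RefSeq (GRCm38.p6), most of them before the start of the gene and the rest after it, were searched because the mitosis genes moved together over mice. A window was found for 34 of the 42 genes (20 mitosis, 11 replication and 3 G1 control), the first listed where there were several. Ccna2, Aurkb, Kif20a, Tpx2, Mcm4, Gins2, Ccne2 and Ccnd1 were not matched. The letters searched, on both strands, were TTTGAA and TTCGAA, forms of the cell cycle homology region (CHR) bound by DREAM and B-Myb complexes; CCAAT, the box of NF-Y; and TTTGGCGC and TTTCCCGC, forms of the E2F site. TTCGAA reads the same on both strands.

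TTTGAA was in 15 of 20 mitosis windows (75%), 1 of 11 replication windows (9.09%) and 0 of 3 G1 control windows, compared with 12% of 10998 tested genes and 18.1% of all 27025 windows. Either CHR form was in 16 of 20 mitosis windows (80%), 2 of 11 replication windows (18.2%) and 0 of 3 G1 control windows, against 13.9% of tested genes. CCAAT was in 18 of 20 mitosis windows (90%) and 8 of 11 replication windows (72.7%) and 0 of 3 G1 control windows, against 38.2% of tested genes. An E2F form was in 6 of 11 replication windows (54.5%), those of Mcm3, Mcm5, Mcm6, Mcm7, Cdc6 and Cdt1, in 0 of 20 mitosis and 0 of 3 G1 control windows, and in 2.93% of tested genes. Only the exact letters given were searched, so a window without a match may still hold another form of the site. A match is a description of sequence, and binding was not measured.

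Windows of 4 named mitosis genes are printed to show how the letters lie, 5′ to 3′ on the strand of the gene, with every match of the letters searched, on either strand, in capitals (TTCAAA holds TTTGAA, and ATTGG holds CCAAT, on the other strand). They lie at chr7:135716330-135716629 (Mki67), chr11:99024140-99024439 (Top2a), chr9:70421505-70421804 (Ccnb2) and chr10:69352863-69353162 (Cdk1), all on the minus strand of GRCm38.p6, and each spans the annotated start of its gene. Mki67, Ccnb2 and Cdk1 each hold 2 TTTGAA and 3 CCAAT, and Top2a holds 2 TTTGAA, 2 sites of TTCGAA and 6 CCAAT.
Mki67: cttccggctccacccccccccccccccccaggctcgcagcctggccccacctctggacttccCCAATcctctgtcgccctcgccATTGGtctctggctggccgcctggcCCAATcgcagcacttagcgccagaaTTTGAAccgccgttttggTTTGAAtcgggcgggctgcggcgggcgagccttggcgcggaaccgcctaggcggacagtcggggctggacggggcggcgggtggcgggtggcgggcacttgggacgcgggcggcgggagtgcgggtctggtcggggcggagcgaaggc
Top2a: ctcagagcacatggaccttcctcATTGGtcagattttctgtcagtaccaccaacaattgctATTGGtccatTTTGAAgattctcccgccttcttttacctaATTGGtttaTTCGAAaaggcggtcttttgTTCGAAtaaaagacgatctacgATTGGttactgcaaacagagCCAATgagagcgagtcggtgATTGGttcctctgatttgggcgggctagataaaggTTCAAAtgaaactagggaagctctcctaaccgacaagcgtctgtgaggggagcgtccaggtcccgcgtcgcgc
Ccnb2: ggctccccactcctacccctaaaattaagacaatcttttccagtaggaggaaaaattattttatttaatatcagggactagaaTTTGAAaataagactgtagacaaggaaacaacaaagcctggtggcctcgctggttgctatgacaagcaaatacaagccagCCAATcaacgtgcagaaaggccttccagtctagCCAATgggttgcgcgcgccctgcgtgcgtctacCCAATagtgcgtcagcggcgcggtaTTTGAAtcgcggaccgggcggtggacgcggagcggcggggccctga
Cdk1: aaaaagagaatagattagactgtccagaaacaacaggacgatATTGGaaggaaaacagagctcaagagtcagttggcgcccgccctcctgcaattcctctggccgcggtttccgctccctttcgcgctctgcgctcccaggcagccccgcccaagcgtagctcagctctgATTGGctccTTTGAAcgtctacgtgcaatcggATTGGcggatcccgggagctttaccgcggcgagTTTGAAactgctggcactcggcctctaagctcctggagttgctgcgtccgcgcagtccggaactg

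The seed of miR-501 was also searched in the members. GGTGCAT, the match to bases 2 to 8 of miR-501-3p, was in the longest annotated 3′ UTR of 3 of 42 members (7.14%), Gins2, Ccne1 and Ccnd1, compared with 7.39% of 14069 tested genes. AAAGGAT, the match to miR-501-5p, was in 3 of 42 (7.14%), Cdk1, Cdc6 and Ccne2, compared with 13.9%. These shares were not adjusted for length, and the median 3′ UTR had 1028 bases in members and 1347 in tested genes. Log2 fold changes of the first 3 were 0.08, 0.11 and −0.02, and of the second 3 0.03, 0.18 and 0.06; none passed an unadjusted p under 0.05. The level of neither arm was analysed here, so a match in letters does not show that the arm was present, and the 2 arms need not count alike.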

How the data were processed

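The gene counts were those deposited by the authors, made with STAR and featureCounts on GRCm38.p5 from 100 base single-end NovaSeq reads of TruSeq Stranded mRNA libraries, and R 3.5.1 is the version named there. The strand setting of the counting is not given in the sources used here. Counts of the 10 mice were read as 1 matrix, and identifiers were mapped to symbols with GENCODE M21 (25664 of 25700 matched). Genes were kept with edgeR's filter (minimum count 10, minimum total 15), scaled by TMM and fitted by genotype with the quasi-likelihood F test of edgeR 4.0.16 in R 4.3.3, with Benjamini-Hochberg adjustment over all genes tested. An exact permutation test over all 252 assignments of 5 against 5 mice was run on CPM. Alternatives were DESeq2 1.42.0, limma 3.58.1 with voom, the likelihood ratio test, robust quasi-likelihood, other filters, scaling without mitochondrial and fibre genes, and leaving out each mouse.

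Members and lists were chosen with earlier results of these data known. Named members are 9 well-known genes (Mki67, Top2a, Cdk1, Pcna, Mcm2, Rrm2, Ccnd1, Cdkn1a and E2f1) and the 3 with the smallest p in each role; from each other pathway list the gene with the smallest p in each direction is named. Mouse numbers were not used as pairs. Promoters and miR-501 arms came from RefSeq GRCm38.p6 and 3′ UTRs from GENCODE M21. Levels of miR-501 were not analysed here. The result of 1 marker list is not reported here.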

Additional observations from a re-analysis of the deposited data

Results flagged for a closer look

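Among 46 quantities in 2 genotypes, 92 groups were searched for a value far from the other 4 mice, 2 were found, and 4.6 would be found by chance. Mcm4 in Pax7Cre mouse 2 was 23.1 CPM, the lowest, against 34.4 to 38.7 CPM in the other 4 Pax7Cre mice. The replication minus mitosis score in Pax7Cre mouse 2 was 0.42, the highest, against 0.08 to 0.17 in the other 4. The cause of either was not tested.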

How the results depend on the processing

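Settings were varied 1 at a time and causes of any change were not tested. With no filter 153 genes were higher and 159 lower at an unadjusted p under 0.05, with at least 10 counts in every mouse 36 were higher and 100 lower, and at p under 0.01 there were 2 higher and 7 lower. As a block by mouse number 87 genes were higher and 102 lower, with 0 adjusted and 0 members; deviations of mice with the same number gave r from −0.305 to 0.337, so the numbers were not read as pairs. Medians of log2 CPM gave r = 0.89 between the scores.

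Leaving out 1 mouse at a time gave 39 to 267 genes higher, 59 to 242 lower, 0 to 2 members higher and 0 to 1 members past an unadjusted p of 0.05 in the exact permutation test. Log2 fold changes ran from −0.0512 to 0.173 for Mki67, −0.0874 to 0.118 for Top2a, −0.108 to 0.123 for Cdk1, −0.0654 to 0.124 for Mcm2, −0.0267 to 0.245 for Cdkn1a, −0.0371 to 0.173 for E2f1, −0.0604 to 0.0466 for Ccnd1. Those that kept their sign ran from 0.0571 to 0.259 for Aurka, 0.045 to 0.319 for Ccnb2, 0.0604 to 0.239 for Aurkb, −0.118 to −0.021 for Pcna, 0.0035 to 0.21 for Rrm2, 0.0767 to 0.265 for Cdc6, 0.0381 to 0.225 for Mcm5, 0.011 to 0.159 for Mcm7, 0.0165 to 0.192 for Ccne1, 0.015 to 0.147 for Ccne2. Named members kept their direction in 159 of these fits and turned in 11, of which 6 were without Pax7Cre mouse 2. The score difference ran from −0.05 to 0.03. With Pax7Cre mice 2 and 4 both left out, a setting added after the data were seen, 279 genes were higher and 252 lower, and r was 0.87.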
